A study of Mus musculus with 5 samples.

Results

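The cell cycle module is a fixed list of 40 genes, found by gene symbol among the 31053 genes of the deposited tables. All 40 were present. They were divided into 23 genes of G2 and mitosis (G2/M), 16 genes of S phase, and Stmn1, a regulator of microtubule turnover that was kept apart from both. Their transcripts were counted in single cells of the mouse heart, in lineages defined by other genes.

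Single cells came from enzymatically digested hearts in 5 libraries of the 10x Genomics 5-prime chemistry. The 2 control libraries (replicates 1 and 2) were Ctla4+/+Pdcd1-/- and the 3 disease libraries (replicates 3, 4 and 5) were Ctla4+/-Pdcd1-/-, mice that stand in for the myocarditis seen under immune checkpoint inhibitors. By these labels both groups carry the deletion of Pdcd1, which encodes the inhibitory receptor PD-1 of T cells, and no group labelled with intact Pdcd1 enters the comparison. The series lists 4 control and 10 disease mice. Hearts were pooled, so the library and not the mouse was the replicate, and which mice entered which library is not stated in the labels. No age is given in the labels. The sample tags name Pdcd2 in libraries 2 and 4, Pdcd3 in library 5, and a sort dye numbered one higher with each library, where the series text has Pdcd1 and DRAQ5 throughout. The groups were therefore taken from the Ctla4 genotype, which the tags and the series text share. Sorted cells took up the DNA dye DRAQ5 and excluded DAPI, which selects for nucleated cells with intact membranes. Whether the sort shifted the shares of cells in each phase of the cycle was not tested.

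In S phase a cell copies its genome. Helicases of the Mcm2 to Mcm7 family are loaded at origins by Cdc6, fired with Cdc45 and the GINS complex, and followed by the sliding clamp Pcna, while Tyms, Rrm1 and Rrm2 supply nucleotides. In G2 and mitosis the cell builds up Cdk1 with its cyclins, the Aurora and Polo kinases, kinetochore proteins, spindle motors and the ubiquitin ligase arms that end mitosis. In the adult heart most endothelial cells and fibroblasts rest outside the cycle, whereas T cells divide after they meet antigen and resident macrophages renew slowly.

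RefSeq promoters, from 250 bases before to 50 bases after the gene start on GRCm38.p6, were matched for 33 of the 40 genes, 19 of the G2/M and 14 of the S genes. The search covered TTTGAA and TTCGAA, the words of the cell cycle homology region that the MuvB complex reads, CCAAT, the box read by NF-Y, and 4 words of E2F sites, TTTCCCGC, TTTCGCGC, TTTGCCGC and TTTGGCGC. Both strands were searched, and words of different motifs could share bases. The 250 bases before the start are shown for 5 genes, chosen after the search as examples of G2/M promoters with a homology word and of S promoters with an E2F word, 5′ to 3′ on the strand of the gene, with every matched word in capitals.
Mki67 (chr7:135716380-135716629, minus strand): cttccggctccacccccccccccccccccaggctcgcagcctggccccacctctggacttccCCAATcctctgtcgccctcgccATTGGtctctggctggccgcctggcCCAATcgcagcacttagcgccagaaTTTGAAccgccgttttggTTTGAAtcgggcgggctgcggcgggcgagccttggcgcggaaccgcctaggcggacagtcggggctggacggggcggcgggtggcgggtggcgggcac
Ccnb2 (chr9:70421555-70421804, minus strand): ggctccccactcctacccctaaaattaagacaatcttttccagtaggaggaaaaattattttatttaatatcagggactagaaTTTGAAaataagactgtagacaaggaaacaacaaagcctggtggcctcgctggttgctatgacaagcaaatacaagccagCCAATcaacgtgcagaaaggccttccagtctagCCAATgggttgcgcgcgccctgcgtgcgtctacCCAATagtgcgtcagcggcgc
Cdk1 (chr10:69352913-69353162, minus strand): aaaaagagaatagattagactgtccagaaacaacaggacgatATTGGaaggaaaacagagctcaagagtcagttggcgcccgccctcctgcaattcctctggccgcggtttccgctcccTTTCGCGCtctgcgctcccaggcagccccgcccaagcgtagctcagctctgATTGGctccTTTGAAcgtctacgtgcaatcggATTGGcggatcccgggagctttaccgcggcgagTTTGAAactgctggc
Cdc6 (chr11:98907901-98908150, plus strand): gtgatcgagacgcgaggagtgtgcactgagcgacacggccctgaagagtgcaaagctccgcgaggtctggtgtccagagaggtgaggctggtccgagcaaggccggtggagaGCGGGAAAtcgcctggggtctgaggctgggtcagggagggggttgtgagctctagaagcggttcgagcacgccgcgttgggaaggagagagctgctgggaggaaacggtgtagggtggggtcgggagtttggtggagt
Mcm6 (chr1:128359706-128359955, minus strand): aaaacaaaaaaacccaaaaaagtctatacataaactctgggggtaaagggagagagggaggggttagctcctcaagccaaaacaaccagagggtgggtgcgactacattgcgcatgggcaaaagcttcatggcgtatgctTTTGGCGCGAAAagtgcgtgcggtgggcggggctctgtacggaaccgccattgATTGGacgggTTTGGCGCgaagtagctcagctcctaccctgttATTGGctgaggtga
A cell cycle homology word lay in 15 of 19 G2/M promoters (78.95%) and in 3 of 14 S promoters (21.43%), against 19.23% of all 32851 promoters in the RefSeq table. CCAAT was in 17 of 19 and 11 of 14, against 37.41% of all promoters. An E2F word was in 1 of 19 G2/M promoters, that of Cdk1, and in 5 of 14 S promoters (35.71%), against 2.265% of all. Mki67, Ccnb2 and Cdk1 held the homology word together with CCAAT, as did all 15 of the G2/M promoters with a homology word and 7.525% of promoters in the table. Cdc6 and Mcm6 held E2F words and no homology word. Other kinds are not shown. Ccnb1, Cenpe, Rrm1, Rrm2, Pcna, Slbp and the first entry of Uhrf1 held CCAAT alone, and Birc5, Nusap1, Tyms and Ung held none of the words. The S genes Mcm2 and Cdc45 held a homology word and no E2F word. Mcm7 and Uhrf1 have 2 entries each in the table, of which the first was counted. The second entry of Mcm7 holds neither a homology nor an E2F word, and that of Uhrf1 holds an E2F word, so that 6 of 14 S genes have one on any entry. These are matches of letters, not measured binding sites.

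The deposited counts summed to between 24991704 and 55053988 unique molecular identifiers (UMIs, each standing for 1 captured transcript) per library. Filters left 37100 of 47319 barcodes, 5520 to 9496 per library, at medians of 3336.5 to 4540 UMIs per cell. A cell entered a lineage when it carried at least 3 UMIs over at least 2 of 7 or 8 marker genes of that lineage and met the rule for no other lineage. The rule gave 3433 T cells, 4465 macrophages, 13612 endothelial cells, 9687 fibroblasts, 1089 B cells, 184 neutrophils and 74 NK cells. Another 3523 cells (9.50%) met several rules and 1033 (2.78%) met none, and both were left out of the lineages. Members of the module were not among the marker genes. Disease replicate 4 held 2127 of the 3433 T cells, and control replicate 2 and disease replicate 3 held 98 and 144. Pairs of libraries shared 86 to 161 barcodes. Ctla4, the targeted gene, was at 449 and 73.6 CPM (UMIs of a gene per 1000000 UMIs of the lineage) in control T cells and at 129, 646 and 548 CPM in disease T cells, so its level did not separate the groups. T cells had 592 and 63.8 CPM of Pdcd1 in the controls, and 230, 1046 and 825 CPM in disease. Transcripts of both were counted in every library, so neither gene checks the labels.

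The first comparison asked in which lineages of the heart transcripts of the cell cycle genes were counted. T cells had the highest mean level over the 5 libraries for 36 of the 40 genes among the 5 large lineages. B cells had the highest for the other 4, Aurka, Aurkb, Cdc20 and Ung. Summed over the 23 G2/M genes, T cells reached 642 and 184 CPM in control replicates 1 and 2 and 354, 419 and 404 CPM in disease replicates 3, 4 and 5. Macrophages followed with 171, 78.5, 103, 120 and 115 CPM in the same order, then endothelial cells with 51.6, 76.9, 48.1, 47.5 and 47.0 CPM. Fibroblasts were at 58.8, 24.7, 23.2, 22.2 and 21.3 CPM, the lowest of the 5 lineages in 4 libraries, and endothelial cells were lowest in control replicate 1. The ranges of T cells, macrophages and endothelial cells did not overlap over the 5 libraries. B cells stood at 125, 134, 331, 77.4 and 94.5 CPM and overlapped macrophages and T cells.

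**Figure D1:**
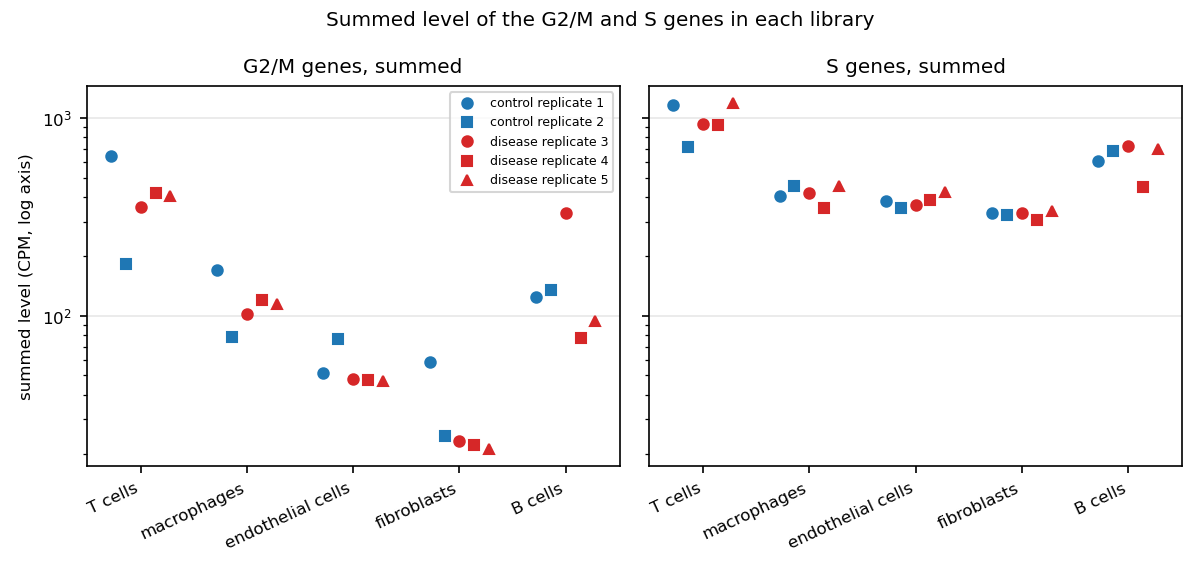
Summed level of the 23 G2/M genes (left) and the 16 S genes (right) in CPM on a log axis, by lineage, with 1 point for each library (blue control, red disease). The G2/M level falls from T cells (184 to 642 CPM) to fibroblasts (21.3 to 58.8 CPM), whereas the S level stays between 304 and 1188 CPM over the 5 lineages.

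The summed S genes spread less. They were at 714 to 1188 CPM in T cells, 449 to 722 CPM in B cells, 349 to 455 CPM in macrophages, 350 to 422 CPM in endothelial cells and 304 to 339 CPM in fibroblasts. There were 2.25 S UMIs for each G2/M UMI in T cells, 3.07 in macrophages, 4.43 in B cells, 6.96 in endothelial cells and 9.67 in fibroblasts, pooled over libraries of unequal cell number. This order did not hold in every library. On the log2 scale the ratio in control replicate 1 was 2.88 in endothelial cells and 2.49 in fibroblasts, and in disease replicate 3 it was 1.13 in B cells, 1.41 in T cells and 2.02 in macrophages. Pcna and Slbp supplied 4873 and 7391 of the 19292 S UMIs of fibroblasts, and 4845 and 4591 of the 16709 of endothelial cells. The plot of summed levels shows both lists by lineage and library.

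Lineages were compared gene by gene with edgeR's quasi-likelihood test, with the library as a block, over 13569 genes with sufficient counts. Adjusted p-values are Benjamini-Hochberg values over all genes tested, with 0.05 as the threshold. Of the 40 members 39 entered, all but Ttk, a spindle checkpoint kinase with 29 UMIs in T cells. In T cells against endothelial cells 39 of 39 members were higher, where 33.1% of all genes were called higher and 71.8% were called in either direction. Against fibroblasts 39 of 39 were higher, with 34.5% of all genes called higher and 75.4% called in either direction. Against macrophages 36 of 39 were higher, with 30.6% of all genes called higher and 63.9% called in either direction, and Kif23, Bub1b and Cdc20 were not called. No member was called lower in T cells in any of these comparisons. The members' median log2 fold change was 2.79 against endothelial cells, 3.18 against fibroblasts and 1.64 against macrophages, beside medians of -0.13, -0.13 and -0.06 over all genes tested.

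Against B cells 26 of 39 members were higher in T cells and none lower, with 21.6% of all genes called higher, 33.3% called in either direction and a median of 1.67 beside 0.19 over all genes. Without disease replicate 4, which supplied most T cells, 16 were called. None of the 5 mitotic kinases and checkpoint genes tested passed against B cells. Neither did Ube2c and Cdc20, which serve the anaphase-promoting complex. All 3 genes of chromosome structure passed, as did 3 of the 4 cyclin and Cdk genes and 8 of the 9 genes of origin licensing and firing. Many G2/M counts in B cells came from 1 cell, as described below.

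**Figure D2:**
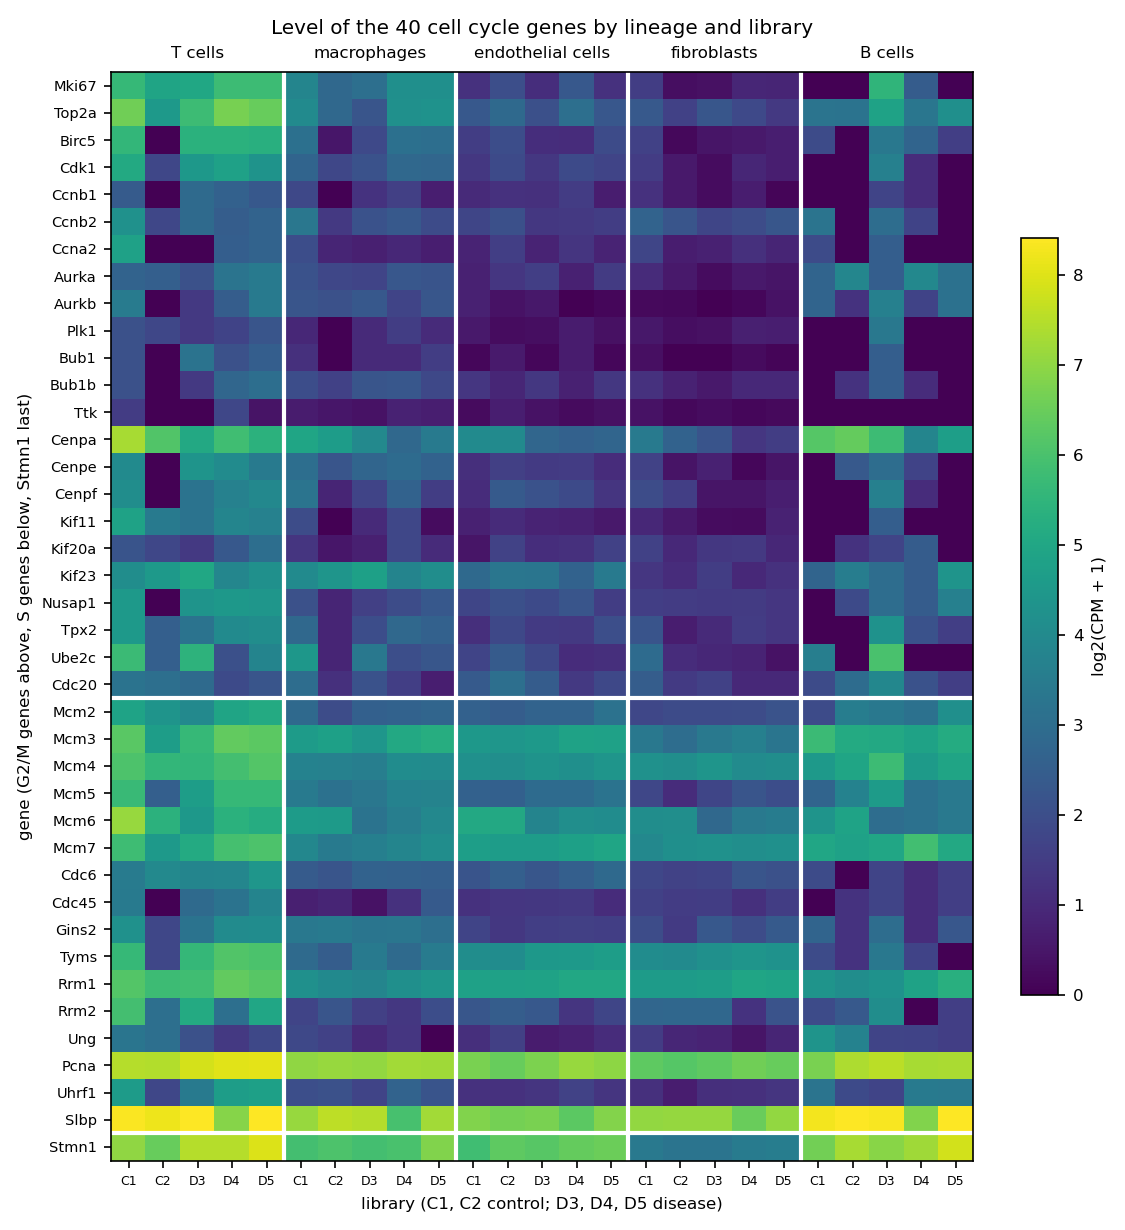
Level of each of the 40 genes, as log2(CPM + 1), in 5 lineages and 5 libraries (C1 and C2 control, D3 to D5 disease). The G2/M rows are bright in T cells and dark in fibroblasts, while Mcm4, Rrm1, Pcna and Slbp are visible in every lineage.

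Genes of chromosome structure showed the steepest fall from T cells to fibroblasts. Mki67, which coats mitotic chromosomes, was at 48.3 and 29.4 CPM in control T cells and at 31.0, 53.0 and 53.5 CPM in disease T cells. In macrophages it was at 13.2 and 6.17 CPM in controls and at 7.32, 17.2 and 17.1 CPM in disease. Endothelial cells had 1.29 and 3.09, then 1.14, 3.97 and 1.28 CPM, and fibroblasts had 0.244 to 1.87 CPM. The T cell range stood above those of macrophages, endothelial cells and fibroblasts in every library, and the endothelial and fibroblast ranges overlapped. The log2 fold change of Mki67 in T cells was 1.82 over macrophages (edgeR adjusted p = 1.72e-05), 4.82 over endothelial cells (1.04e-11) and 5.83 over fibroblasts (3.56e-13). Top2a, which untangles sister chromatids, and Birc5, a subunit of the chromosomal passenger complex, were 5.00 and 5.62 log2 units above fibroblasts. Birc5 had no UMI in the 98 T cells of control replicate 2 and 38.9 to 46.1 CPM in the T cells of the other 4 libraries.

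Cdk1, the kinase that drives mitosis, was at 33.6 and 2.45 CPM in control T cells and at 21.2, 27.0 and 18.9 CPM in disease T cells. Its log2 fold change in T cells was 2.20 over macrophages (edgeR adjusted p = 2.89e-07) and 4.94 over fibroblasts (2.31e-13). Ccnb2, a mitotic cyclin, followed another order. It was at 1.59 to 3.20 CPM in endothelial cells and at 2.40 to 5.33 CPM in fibroblasts, and it was lower in endothelial cells than in fibroblasts by edgeR (log2 fold change -0.86, adjusted p = 0.0101). Gins2, a subunit of the GINS complex, and Slbp, which binds histone messenger RNA, were the other members called lower in endothelial cells than in fibroblasts, where 33.7% of all genes were called lower. In the same comparison 14 members were higher, with 31.9% of all genes called higher and 65.6% called in either direction. The members' median was 0.52 beside 0.00 over all genes, and the share of members called was below the share of all genes called.

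Kif23 and Stmn1 set endothelial cells apart from fibroblasts by the most. Kif23, a motor of the spindle midzone and the midbody, was at 6.25 and 8.85 CPM in control and 8.54, 5.24 and 9.96 CPM in disease endothelial cells, against 0.965 to 1.90 CPM in fibroblasts. Stmn1 was at 56.6 to 91.8 CPM in endothelial cells and at 8.51 to 10.8 CPM in fibroblasts. Neither pair of ranges overlapped. The log2 fold changes were 2.33 for Kif23 (edgeR adjusted p = 6.52e-12) and 2.86 for Stmn1 (1.29e-15). Kif23 was at 13.0 to 26.3 CPM in macrophages and 13.6 to 31.0 CPM in T cells, and it was the member whose level differed least between those lineages (log2 fold change 0.12, edgeR adjusted p = 0.526).

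Macrophages had 24 members above endothelial cells, with 33.6% of all genes called higher and 70.3% called in either direction, and 30 above fibroblasts, with 33.7% called higher and 70.8% called in either direction. All 5 mitotic kinases and checkpoint genes tested were higher in both comparisons. S genes were more divided. Tyms, Mcm7 and Rrm1 were lower in macrophages than in endothelial cells, where 36.7% of all genes were called lower. Tyms and Rrm1 were also lower than in fibroblasts, where 37.1% were called lower. Tyms, which makes thymidylate, was at 4.52 to 10.4 CPM in macrophages, at 16.2 to 24.9 CPM in endothelial cells and at 15.2 to 19.9 CPM in fibroblasts. The macrophage range lay below the others, which overlapped each other, and the log2 fold change of macrophages was -1.04 over endothelial cells (edgeR adjusted p = 9.75e-05) and -0.98 over fibroblasts (0.000185). In T cells Tyms was at 48.3 and 2.45 CPM in controls and at 47.3, 69.0 and 63.7 CPM in disease, so that control replicate 2 was below every endothelial and fibroblast library. That library held only 98 T cells, with very few UMIs of Tyms.

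The next comparison asked how the UMIs of each member were divided between cells with and without other G2/M transcripts. For each gene, cells were set aside that had at least 2 UMIs over the other G2/M genes, without thinning. Such cells were 707 of 3433 T cells for the S genes and held 32.1% of all T cell UMIs, at a median of 5884 against 3652.5 UMIs. Of the Birc5 UMIs in T cells 97.5% lay in these cells, of Ccna2 97.0%, of Ube2c 95.8% and of the S gene Cdc6 94.6%. Their levels in these cells were 83.8, 69.1, 48.6 and 37.4 times those in the other T cells. The median over the G2/M genes was 86.6% and over the S genes 64.0%. The share of UMIs from free RNA was not measured. Only 23.9% of T cells and 32.3% of endothelial cells had no marker UMI of another lineage, so a UMI outside the set-aside cells does not show transcription there.

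Some members of both lists did not follow this rule. Cenpa, the histone variant of centromeres, had 28.4% of its T cell UMIs in the set-aside cells, which held 22.1% of all UMIs when Cenpa was left out of the choice, a level 1.40 times that of the other cells. Aurka, a kinase of the spindle poles, had 38.4% (1.38 times) and Kif23 41.4% (1.60 times). Among S genes, Slbp had 35.3% (1.16 times) and Pcna 39.3% (1.37 times). For these 5 genes most UMIs in T cells came from cells with fewer than 2 UMIs of the other G2/M genes, as the plot of shares by gene shows.

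**Figure D3:**
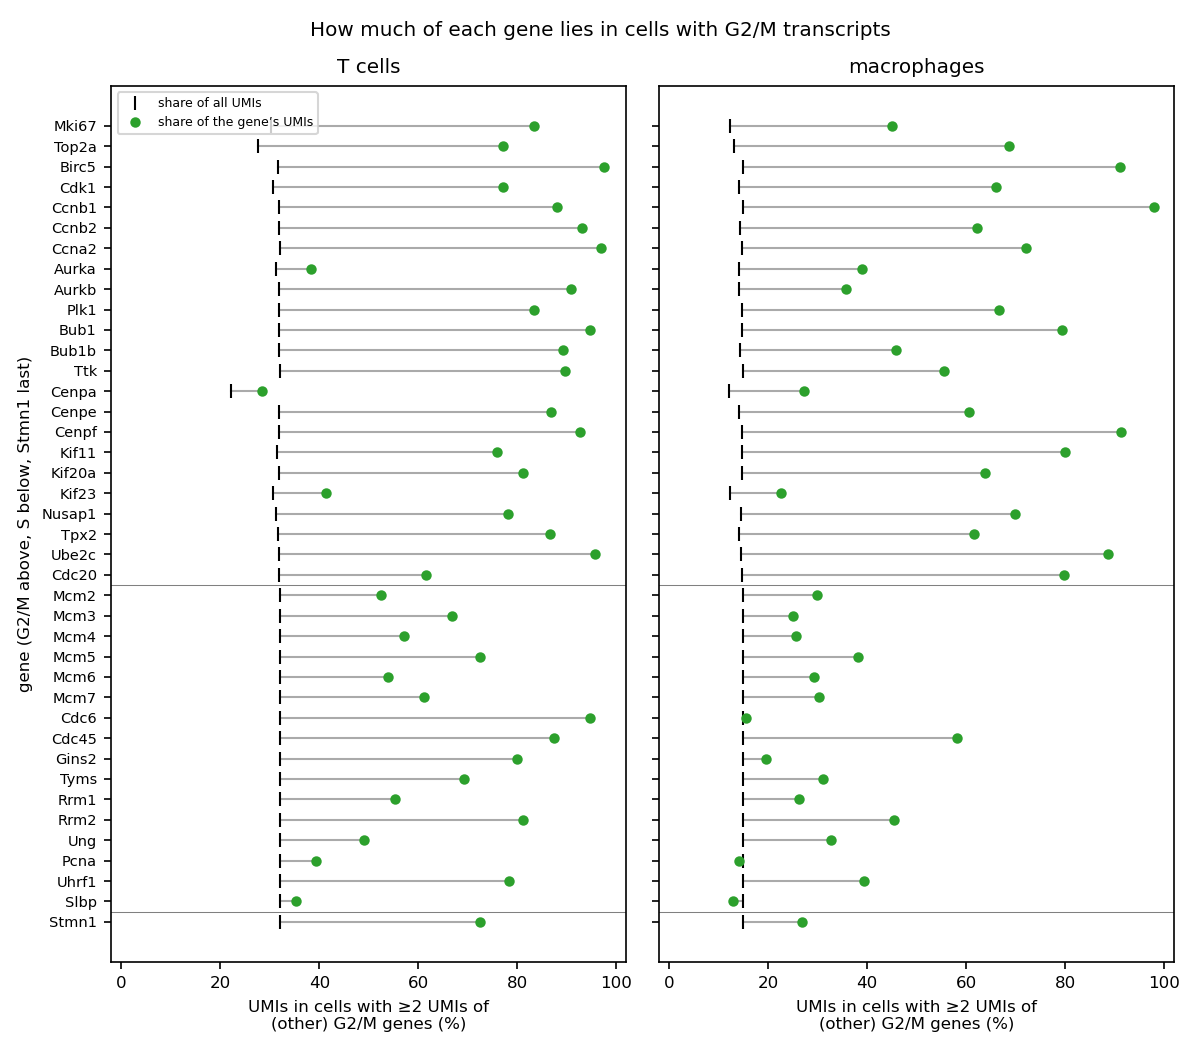
Share of each gene's UMIs (dots, %) that lay in cells with at least 2 UMIs of the other G2/M genes, beside the share of all UMIs in those cells (ticks), in T cells (left) and macrophages (right). Cenpa, Aurka, Kif23, Pcna and Slbp lie near the ticks in T cells, and Cdc6 lies at 94.6% in T cells and at 15.6% in macrophages.

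In macrophages the set-aside cells held 12.1 to 14.9% of all UMIs. They had 223 CPM of dendritic cell markers against 85.1 CPM in the other macrophages, higher in each of the 5 libraries, and the part of these markers in the result was not tested. Ccnb1 had 98.0% of its UMIs in them, Cenpf 91.2%, Birc5 91.1% and Ube2c 88.6%. Mki67 had 45.1%, and 229 of its 417 macrophage UMIs lay in cells without 2 UMIs of other G2/M genes. The median over S genes was 29.5%. Cdc6, which loads the Mcm helicase, had 15.6% at 1.06 times the level of other macrophages, against 37.4 times in T cells. The Cdc6 level in macrophages outside the set-aside cells was 4.72 CPM, against 1.12 CPM in the corresponding T cells. Pcna was at 0.941 times and Slbp at 0.844 times the level of other macrophages.

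Endothelial cells and fibroblasts had few set-aside cells, 218 of 13612 and 163 of 9687 for the S genes. In endothelial cells they held 72.5% of Birc5, 69.7% of Cenpf and 58.6% of Mki67 UMIs. In fibroblasts they held 70.4% of Ube2c and 57.1% of Cenpf UMIs. UMIs of most S genes in these lineages lay outside them, with a median share of 3.57% inside in endothelial cells. Mcm6 had 3.20% of its endothelial UMIs in cells that held 2.89% of all UMIs, and 1.79% of its fibroblast UMIs in cells that held 1.96%. Pcna had 3.51 and 2.03%. The set-aside endothelial cells had 2134 CPM over a list of mural cell markers against 810 CPM in the other endothelial cells, and this order held in each of the 5 libraries. Erythroid markers were at 6233 against 3180 CPM, and only in control replicate 1 and disease replicate 3 (27570 against 4336 CPM) were they higher in the set-aside cells. The part of these markers in the result was not tested.

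G2/M transcripts in endothelial cells and fibroblasts came partly from single cells with many of them. Cells with at least 10 G2/M UMIs held 27.0% of the G2/M UMIs of endothelial cells and 30.2% of those of fibroblasts. More lay in cells with 1 G2/M UMI each, 1265 of 2402 UMIs in endothelial cells and 1054 of 1996 in fibroblasts. In fibroblasts of control replicate 1, 1 cell held 384 of 1069 G2/M UMIs, among them 79 of 122 Ube2c and 34 of 52 Cenpf UMIs. It carried 99 UMIs of fibroblast markers and 0 of the markers of other lineages. Without this cell the fibroblast level of that library was 37.7 CPM in place of 58.8 CPM, and without the corresponding cell of each other library the levels were 19.8 to 23.5 CPM. In endothelial cells of control replicate 2, 1 cell held 167 of 721 G2/M UMIs. In B cells of disease replicate 3, 1 cell held 107 of 142, including all 19 Mki67 and all 27 Ube2c UMIs of that library's B cells, and without it the level fell from 331 to 88.2 CPM. Among T cells, 1 cell held 80 of 217 G2/M UMIs in disease replicate 3 and 22 of 75 in control replicate 2, and the levels without it were 230 and 131 CPM in place of 354 and 184 CPM. In the other 3 libraries the top T cell held 2.27 to 10.8%. The set-aside B cells of disease replicate 3, 5 cells with the top cell among them, had 19826 CPM of plasma cell markers against 297 CPM in its other B cells, and 3635 against 9597 CPM of B cell markers. In disease replicate 4 plasma markers were at 35657 against 260 CPM. Their part in the B cell levels was not tested. Cells with at least 10 G2/M UMIs were 115 of 3433 T cells (3.35%), 29 of 4465 macrophages (0.650%), 11 of 13612 endothelial cells (0.0808%), 6 of 9687 fibroblasts (0.0619%) and 1 of 1089 B cells (0.0918%).

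To compare shares of cells at equal depth, every cell was thinned to 1000 UMIs, and a cell was counted when at least 2 of them were of G2/M genes. Intervals are 95% Wilson intervals and cover counting error only. T cells reached 7.63% (5.63 to 10.3) and 2.06% (0.567 to 7.21) in control replicates 1 and 2. In disease replicates 3, 4 and 5 they reached 6.25% (3.32 to 11.5), 4.13% (3.35 to 5.07) and 4.20% (2.82 to 6.23). The control libraries lay on either side of the disease libraries. Macrophages had 0.649 to 1.59% in the 5 libraries, endothelial cells 0.194 to 0.328% and fibroblasts 0.0506 to 0.177%. Over all libraries the shares were 4.70% of T cells (158 of 3359), 1.27% of macrophages (54 of 4256), 0.238% of endothelial cells (30 of 12595) and 0.114% of fibroblasts (11 of 9625). The share in T cells was above that in macrophages, and that above the shares in endothelial cells and fibroblasts, in each library. In control replicate 2 this rested on 2 of 97 T cells and 3 of 462 macrophages, with overlapping intervals. The intervals of macrophages and endothelial cells overlapped in control replicate 2 and disease replicate 3. Without thinning, 707 of 3433 T cells, 434 of 4465 macrophages, 218 of 13612 endothelial cells and 163 of 9687 fibroblasts met the rule. Thinning left out 74 T cells, 209 macrophages, 1017 endothelial cells and 62 fibroblasts that were too shallow.

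**Figure D4:**
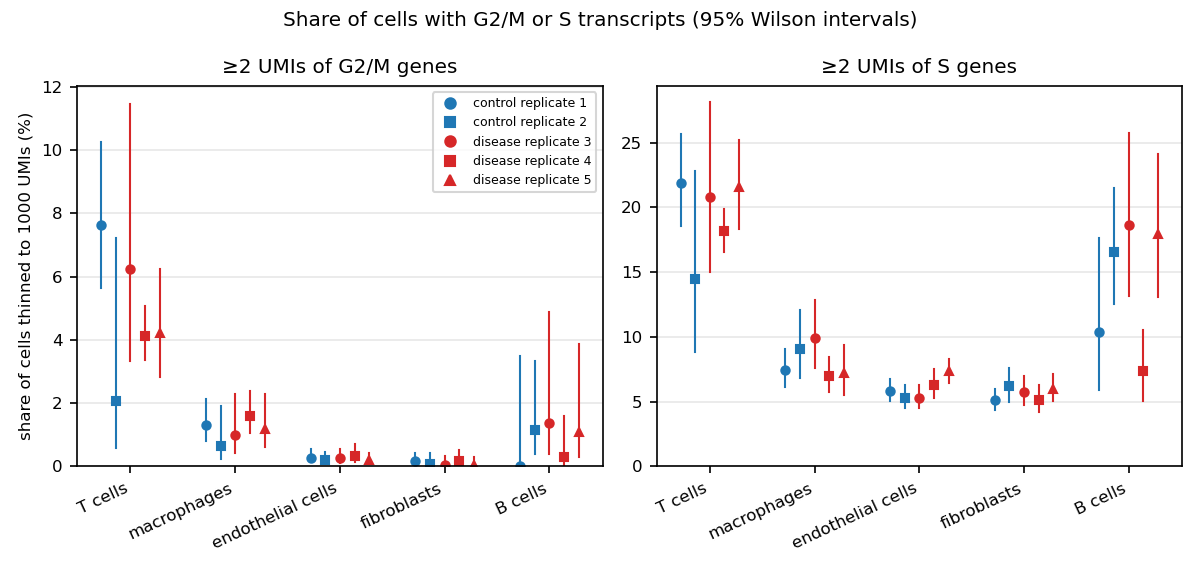
Share of cells with at least 2 UMIs of G2/M genes (left) or S genes (right) after thinning each cell to 1000 UMIs, with 95% Wilson intervals, by lineage and library (blue control, red disease). Of the lineages shown, T cells lie highest at 2.06 to 7.63% for G2/M genes, and the control and disease points overlap in T cells, macrophages, endothelial cells and fibroblasts.

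Neutrophils, which leave the cycle before release from the marrow, were to serve as the lineage without these transcripts. They had 5 of 155 cells over the G2/M rule (3.23%, 1.39 to 7.33). The 7 neutrophils that met the rule without thinning had 2190 CPM of neutrophil markers and a median of 8738 UMIs, against 18737 CPM and 1688 UMIs in the other 177. They had 1086 CPM of dendritic cell markers against 152 CPM. Their part in the neutrophil share was not tested, and the neutrophil share was not used as a background for G2/M genes. NK cells had 1 of 72. For S genes neutrophils were lowest, at 2.58% (4 of 155), with a median depth of 1694.5 UMIs.

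Over the S genes, 19.3% of T cells, 13.3% of B cells, 7.73% of macrophages, 6.05% of endothelial cells and 5.55% of fibroblasts met the rule. Of T cells with at least 2 G2/M UMIs at this depth 50.0% also had at least 2 S UMIs, against 17.8% of the other T cells. The corresponding values were 20.4 and 7.57% in macrophages, 16.7 and 6.02% in endothelial cells (5 of 30 cells) and 18.2 and 5.53% in fibroblasts (2 of 11 cells). Cells with at least 2 S UMIs and fewer than 2 G2/M UMIs made up 78.3% of the T cells that met either rule, 85.5% of such macrophages and 98.0% of such fibroblasts. These classes hold at 1000 UMIs per cell, and cells below the G2/M minimum there can carry G2/M transcripts.

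T cells were divided by Cd4, Cd8a and Cd8b1 UMIs. Of the cells with CD8 transcripts alone, 128 of 2649 (4.83%, 4.08 to 5.72) met the thinned G2/M rule, and of those with Cd4 alone 9 of 245 (3.67%, 1.94 to 6.83). The intervals overlap. Cells with both had 13 of 118 (11.0%), at a median of 6013.5 UMIs against 4133 and 3325 UMIs. In disease replicate 3, 4 of 20 cells with Cd4 alone met the rule, against 3 of 136 in disease replicate 4.

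The second comparison asked whether the members differed between disease and control. Over all kept cells no member was called by edgeR's quasi-likelihood test among 40 tested, where 6.52% of 16067 genes were called, nearly all of them lower (1040 lower, 7 higher). Of the members 29 were above and 11 below 0, with a median log2 fold change of 0.45 beside 0.02 over all genes, and 2 had an unadjusted p under 0.05, beside 16.2% of all genes. DESeq2 also called none. Mki67 over all kept cells was at 8.84 and 2.93 CPM in controls and at 3.25, 20.6 and 8.61 CPM in disease, a difference of 0.95 log2 units (SE 0.94, edgeR adjusted p = 0.630). Disease replicate 4, where T cells were most numerous, was highest.

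Within T cells no member of 38 tested was called, where 5.31% of genes were called. At an unadjusted p under 0.05 there were 4, beside 15.6% of all genes, and DESeq2 called none. The median was 0.18 beside 0.03 over all genes. The summed G2/M level was 413 ± 324 CPM (SD, n = 2) in controls and 392 ± 34.0 CPM (SD, n = 3) in disease. The spread between the control libraries, 642 and 184 CPM, was larger than the difference between the groups. By edgeR, Mki67 in T cells differed by 0.20 log2 units (SE 0.32, adjusted p = 0.816) and Top2a by 0.38 (SE 0.50, 0.775). Without control replicate 1 Tyms and Birc5 were called higher in disease, against the 98 T cells of control replicate 2, and without control replicate 2 Mcm6 and Cenpa were called lower. The calls thus changed with the control library left out.

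Stmn1 in T cells was at 128 and 85.9 CPM in controls and at 176, 179 and 248 CPM in disease, and Pcna at 175 and 172, then 232, 260 and 269 CPM. The groups did not overlap for either gene. Neither passed the test, with log2 fold changes of 0.90 (SE 0.30, edgeR adjusted p = 0.183) and 0.55 (SE 0.25, 0.369). Only 3 of the 40 members were higher in every disease than in every control T cell library, Stmn1, Pcna and Bub1, and 4 were lower, Cenpa, Mcm6, Cdc20 and Ung. Of all genes with at least 10 UMIs in T cells, 10.5% were higher and 18.2% lower in that way.

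Macrophages had no member called among 32 tested, where 6.66% of genes were called, 2 with an unadjusted p under 0.05 beside 18.9% of all genes, and 1 by DESeq2 (Cenpa, lower). Their summed G2/M level was 125 ± 65.6 CPM (SD, n = 2) in controls and 112 ± 8.73 CPM (SD, n = 3) in disease. The groups overlapped, as in T cells. In endothelial cells the summed level was 64.3 ± 17.9 CPM (SD, n = 2) in controls and 47.5 ± 0.548 CPM (SD, n = 3) in disease, and in fibroblasts 41.7 ± 24.1 and 22.2 ± 0.990 CPM. All disease libraries were below all control libraries in both lineages. In this way 21.6% of all genes with at least 10 UMIs were lower in endothelial cells and 23.9% in fibroblasts. Without the cell richest in G2/M UMIs of each library, the endothelial sums were 48.8 and 59.1 CPM in controls and 38.2, 38.4 and 41.6 CPM in disease. The fibroblast sums were 37.7 and 23.5 CPM, then 22.9, 21.9 and 19.8 CPM. The groups stayed apart in both lineages, with Cenpa, described below, still in the sums. Between the control and disease libraries with the nearest full sums, Cenpa fell by more CPM than the sum itself, in both lineages. The sums of the other genes therefore did not separate the groups. B cells had none called among 9 tested, where 8.73% of genes were called, with 2 at an unadjusted p under 0.05, beside 23.1% of all genes, and none by DESeq2.

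Endothelial cells had 2 members called lower among 35 tested, Cenpa and Mcm6, where 12.0% of genes were called and 11.7% were called lower. The share of members called was below that of all genes. Cenpa was at 15.3 and 15.5 CPM in controls and at 5.81, 5.06 and 5.62 CPM in disease endothelial cells. Mcm6, a subunit of the replicative helicase, was at 32.4 and 32.5 CPM in controls and at 12.9, 16.8 and 16.2 CPM in disease. All disease libraries were below all control libraries for both. The log2 fold changes were -1.54 for Cenpa (SE 0.14, edgeR adjusted p = 0.00156) and -1.16 for Mcm6 (SE 0.13, 0.00366). Both calls held in all 12 alternatives run, with adjusted p up to 0.0199 for Cenpa and 0.0331 for Mcm6. The other 5 Mcm helicase subunits were not called. Mcm3, Mcm5 and Mcm2 had every disease endothelial library above every control library, with log2 fold changes of 0.20, 0.43 and 0.31. In this way 7 of 40 members were higher and 4 lower in endothelial cells, beside 24.0% and 21.6% of all genes with at least 10 UMIs, so the members' shares were below those of all genes.

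**Figure D5:**
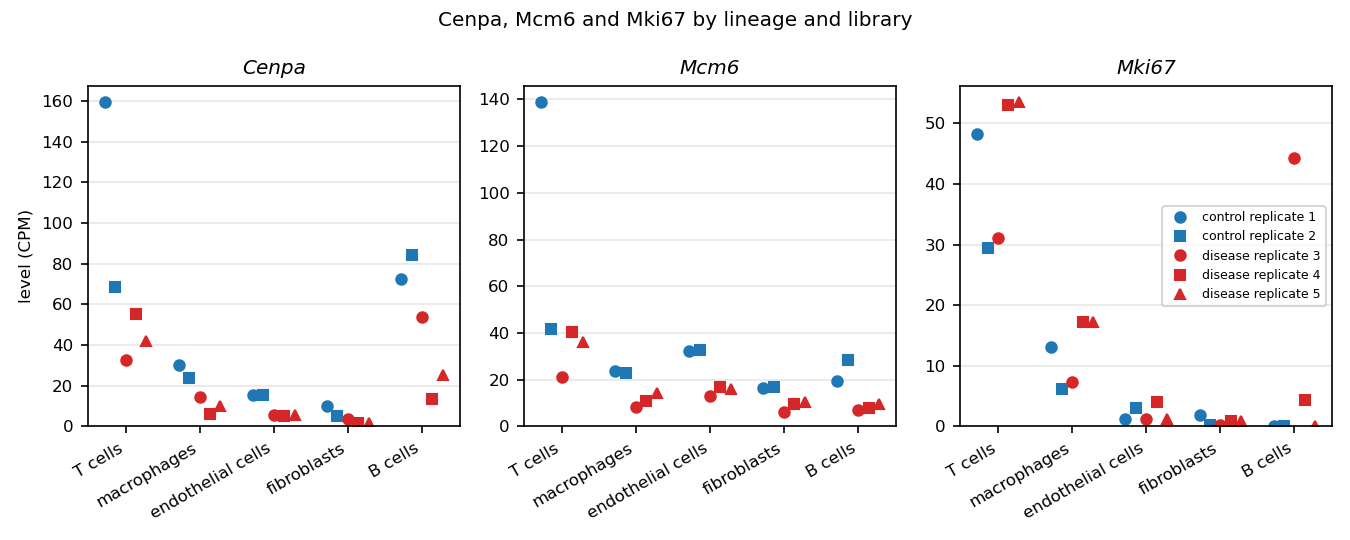
Level in CPM of Cenpa, Mcm6 and Mki67 by lineage, with 1 point for each library (blue control, red disease). For Cenpa and Mcm6 the red points lie below the blue ones in each of the 5 lineages, whereas they overlap for Mki67.

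The same order of the groups held for Cenpa and Mcm6 in every large lineage. Cenpa was at 159 and 68.7 CPM in control T cells and at 32.6, 55.4 and 41.8 CPM in disease T cells, and at 30.1 and 23.8, then 14.6, 6.25 and 10.2 CPM in macrophages. Fibroblasts had 10.0 and 5.24, then 3.50, 1.54 and 1.87 CPM, and B cells 72.2 and 84.2, then 53.5, 13.3 and 25.1 CPM. No disease library reached a control library of its lineage. Of all genes with at least 10 UMIs, 21.9% were lower in this way in macrophages, 23.9% in fibroblasts and 22.7% in B cells. The log2 fold changes were -1.41 in T cells (edgeR adjusted p = 0.0817), -1.36 in macrophages (0.0619), -1.80 in fibroblasts (0.0556) and -1.35 in B cells (0.182), so that the endothelial call alone passed. Without control replicate 1 the value in T cells was -0.69. The lineages come from the same 5 libraries and are not independent of each other.

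Mcm6 was at 139 and 41.7 CPM in control T cells and at 21.2, 40.3 and 36.0 CPM in disease T cells, and at 23.6 and 23.02, then 8.32, 11.0 and 14.2 CPM in macrophages. In fibroblasts it was at 16.4 and 16.8, then 6.11, 9.55 and 10.5 CPM, and in B cells at 19.5 and 28.5, then 6.98, 7.74 and 9.65 CPM. The groups did not overlap in any of these. The log2 fold changes were -1.5 in T cells (edgeR adjusted p = 0.129), -0.92 in macrophages (0.113), -0.95 in fibroblasts (0.0576) and -1.49 in B cells (0.0894). In T cells the value was -0.37 without control replicate 1.

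In T cells outside the set-aside cells, Cenpa was at 129 and 63.2 CPM in controls and at 26.9, 55.5 and 43.6 CPM in disease. In the set-aside cells it was at 253 and 143 CPM, then 65.1, 55.1 and 36.5 CPM. The GC content of the first 300 transcript bases was 63.7% for Cenpa and 59.3% for Mcm6, beside a median of 59.3% over the genes tested and 57.3% over the members. With the GC trend of each library removed, the endothelial values were -1.38 and -1.17 and both calls held.

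Fibroblasts had 1 member called lower among 28 tested, where 12.9% of genes were called and 12.5% were called lower. DESeq2 called 4 lower, and with 1 library left out edgeR called 0 to 3. The 1 member was Cenpf, a kinetochore protein, at 2.86 and 1.95 CPM in controls and at 0.401, 0.386 and 0.649 CPM in disease, or 52, 16, 4, 4 and 8 UMIs. By edgeR the difference was -2.35 log2 units (SE 0.39, adjusted p = 0.0150). Without control replicate 1 it was -1.99 (adjusted p = 0.143) and without control replicate 2 it was -2.60 (adjusted p = 0.0580), so the call was lost in both while the direction held. As given above, 34 of the 52 UMIs of control replicate 1 came from 1 cell, and in control replicate 2 a single cell held 10 of the 16. Ube2c, which feeds the anaphase-promoting complex, had the largest fitted change, -2.68 (SE 0.82, adjusted p = 0.0995), and 79 of its 122 UMIs in control replicate 1 came from the same cell. Over the 12 alternatives run its change ranged from -3.40 to -0.739.

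Whether the disease difference was of another size in one lineage than in another was tested for 6 pairs of lineages with a lineage by group term. No member was called in any pair. Of all genes, 0.00889% were called for T cells against macrophages, 0.00745% for T cells against endothelial cells and 0.0143% for T cells against fibroblasts. For macrophages the shares were 0.0145% against endothelial cells and 0.0639% against fibroblasts, and for endothelial cells against fibroblasts 0.306%. Between macrophages and fibroblasts 8 of 38 members had an unadjusted p under 0.05, beside 5.90% of all genes, between T cells and fibroblasts 5 of 40, beside 5.34%, and in the other pairs 0 or 1. Without control replicate 1 the control arm was control replicate 2 alone, with 98 T cells, so that fit did not measure the spread between control libraries. There Cenpf, Nusap1, Tyms, Top2a and Birc5 passed between T cells and endothelial cells. Cenpf and Tyms passed between T cells and fibroblasts, and all had a higher disease effect in T cells.

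Slbp and Rrm2 were lowest in disease replicate 4 in all 5 lineages. Slbp was at 118 CPM in T cells of disease replicate 4 and at 292 to 339 CPM in the other 4 libraries. In macrophages the corresponding values were 60.9 against 138 to 190 CPM, in endothelial cells 77.1 against 101 to 115 CPM, in fibroblasts 89.0 against 130 to 136 CPM and in B cells 113 against 308 to 340 CPM. The groups overlapped in each lineage. Rrm2, the small subunit of ribonucleotide reductase, was in disease replicate 4 at 1.59, 1.45, 1.35 and 0 CPM in macrophages, endothelial cells, fibroblasts and B cells, and at 7.34 CPM in its T cells, just below control replicate 2 with 7.36 CPM. Over all kept cells Rrm2 was at 8.49 and 6.33 CPM in controls and at 5.72, 3.30 and 5.90 CPM in disease, so that all disease libraries were below all control libraries there, as for 4 of the 40 members and 19.9% of all genes.

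The ratio of S to G2/M transcripts did not separate the groups in T cells, macrophages or B cells. On the log2 scale it averaged 1.41 in control and 1.37 in disease T cells, and 1.88 and 1.85 in macrophages. In endothelial cells it was 2.88 and 2.19 in controls and 2.92, 3.01 and 3.17 in disease, and in fibroblasts 2.49 and 3.70, then 3.84, 3.78 and 3.99. All disease libraries were above all control libraries in these last lineages. Cenpa is among the G2/M genes of the ratio, and without it the G2/M sums of the groups overlapped in both, as given above. Ratios without Cenpa were not computed.

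Beside the members, 70 other cell cycle genes were followed. In T cells against fibroblasts 55 of 64 tested were higher and 4 lower, with a median of 2.38, beside 34.5% of all genes higher and a median of -0.13. Against macrophages 49 were higher and 6 lower, beside 30.6% of all genes higher. All 20 further replication genes were higher in T cells than in endothelial cells and fibroblasts. Pclaf, a partner of Pcna, and Tk1, which salvages thymidine, led the rises against both, with Pclaf at 6.93 log2 units over endothelial cells and 7.28 over fibroblasts. Other genes of the list were lower in T cells. Ccnd1, a cyclin of G1, was 5.68 log2 units lower in T cells than in endothelial cells, and Cdkn1c, an inhibitor of Cdk, was 5.25 log2 units lower.

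Between disease and control no gene of the wider list was called higher in any lineage. Over all kept cells 2 of 70 were lower, beside 6.47% of all genes. They were Dut, which removes dUTP, with a log2 fold change of -2.13 (edgeR adjusted p = 0.0243) and Ccnd3, a cyclin D, with -1.12 (0.0139). In endothelial cells 6 of 51 were lower, with Dut (-2.79, adjusted p = 0.000989) and Hells (-1.58, 0.0337) at the largest falls, beside 11.7% of all genes lower. In fibroblasts 3 of 49 were lower, beside 12.5%, and in T cells 1 of 60 (Ccnd3), beside 5.3%. In macrophages 1 of 49 was lower (Dut), beside 6.58%, and in B cells 1 of 17 (Cdt1), beside 8.53%. Ccnd3 alone differed between lineages in its disease effect, between macrophages and fibroblasts (1.33, adjusted p = 0.0247).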

How the data were processed

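Single cells of digested mouse hearts were counted in 5 libraries, 2 control and 3 disease, grouped by the Ctla4 genotype in the labels. The authors deposited UMI counts per gene and cell. The file headers name Cell Ranger 3.1.0. The submitters' processing notes name Cell Ranger 3, Seurat 3 and the builds mm10 and GRCh38. The part of Seurat in the deposited counts is not given in the sources used here.

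Barcodes were dropped below 500 UMIs, below 200 genes or above 10% mitochondrial UMIs, and Scrublet (scanpy 1.11.5, Python 3.11.15) removed 1212 doublets, 3.16% of the cells that passed. Its expected rate was set at 0.8% per 1000 barcodes over all barcodes, a choice made after a rate over the kept cells had marked 4 cells in control replicate 2. Lineages were gated by 3 UMIs over 2 of 7 or 8 markers. UMIs were summed per lineage and library, and lineages with at least 30 cells in every library were fitted, which left out NK cells and neutrophils. edgeR 4.0.16 (R 4.3.3) with trimmed-mean scaling, its filter on low counts and Benjamini-Hochberg adjustment over all genes tested was the test, with the library as a block between lineages. Levels are CPM, a gene's UMIs per 1000000 UMIs of the lineage. No label ties libraries to separate sets of mice, so p-values measure the spread between these libraries. The fits were checked on simulated counts. Alternatives were DESeq2 1.42.0, other scaling, every gene with a count, each library left out, doublets kept, up to 25% mitochondrial UMIs, a GC trend removed, a stricter gate, other thinning and other UMI minimums. A minimum of 10 UMIs and the removal of the top cell were chosen after seeing the data. The members and lists were chosen with earlier results of these data known. Any of the 40 members could be named, and of the 70 other cell cycle genes the 2 largest rises and 2 largest falls with an adjusted p under 0.05 in each fit. Which members are described in full was chosen after their values were seen. Symbols were matched to RefSeq promoters on GRCm38.p6, the patch release of mm10. Promoters are not shown for Ccna2, Aurkb, Kif20a, Tpx2, Mcm4, Gins2 and Stmn1.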

Additional observations from a re-analysis of the deposited data

Results flagged for a closer look

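Among cells that met no lineage rule, 9 of 163 in disease replicate 4 (5.52%, Wilson interval 2.93 to 10.2) had at least 2 G2/M UMIs after thinning to 1000 UMIs, a share above those of the control libraries, 2.37% in replicate 1 and 0 of 100 in replicate 2. The other disease libraries had 0 of 80 and 0 of 98. Thinning left out 157 of the 320 cells without a lineage of disease replicate 4 and 131 of the 231 of control replicate 2. Without thinning the order was another, with 5.63% in disease replicate 4 below 8.64 and 9.52% in control replicates 1 and 2 and 6.08% in disease replicate 5, and 3.51% in disease replicate 3. These cells enter none of the lineage comparisons. Without thinning 18 cells of disease replicate 4 had at least 2 G2/M UMIs, and 10 of them carried at least 3 UMIs of dendritic cell markers. Over all libraries it was 25 of 72.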

How the results depend on the processing

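No paired analysis was possible because the groups share no replicate numbers. Of 340 alternatives to the values that answer a comparison 295 stayed within the limits and 45 moved. Of 216 lineage calls 179 were kept in every alternative run and 0 changed direction. Of 165 alternatives for single genes, 19 gained and 2 lost a call, and none reversed.

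Members called between disease and control moved as follows. The edgeR counts in the report were 0 in T cells, macrophages and B cells and 1 in fibroblasts. With every gene with a count, there were 3 of 40 in T cells (6.15% of all genes), 2 of 40 in macrophages (7.61%), 3 of 40 in fibroblasts (8.77%) and 5 of 39 in B cells (7.1%), and 1 of 40 in the test of endothelial cells against fibroblasts (1.49%). DESeq2 called 1 of 32 in macrophages (8.1% of all genes) and 4 of 28 in fibroblasts (16.5%), and the stricter gate 1 of 32 in macrophages (6.87%). With 1 library left out, the counts ranged from 0 to 2 in T cells, 0 to 1 in macrophages, 0 to 3 in fibroblasts and 0 to 1 in B cells. For T cells against B cells they ranged from 16 to 27. The tests of the disease effect ranged from 0 to 5 for T cells against endothelial cells and from 0 to 2 for T cells against fibroblasts.

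Differences in share (disease minus control, percentage points) depended on depth. At 1000 UMIs they were 0.0133 in T cells, 0.270 in macrophages, 0.0313 in endothelial cells, -0.033 in fibroblasts and 0.339 in B cells for G2/M genes. For S genes they were 2.01, -0.247, 0.738, -0.00856 and 1.18 in the same order. For G2/M genes without thinning they were -3.59 in T cells, -0.252 in macrophages, -0.16 in endothelial cells, -0.737 in fibroblasts and -3.56 in B cells. At 2000 UMIs they were -0.443 in macrophages, -0.246 in fibroblasts and -0.727 in B cells. In endothelial cells they were -0.0774 with at least 3 UMIs and -0.0445 with at least 10. For S genes without thinning they were -3.13 in T cells, -2.25 in endothelial cells, -3.01 in fibroblasts and -7.88 in B cells. The S value was -2.11 in macrophages at 2000 UMIs and -0.276 in endothelial cells with at least 3 UMIs. With 1 library left out, the T cell values ranged from -2.77 to 2.80 for G2/M and from -1.73 to 5.75 for S genes. The log2 ratio of S to G2/M ranged from -0.59 to 0.51 in T cells, -0.67 to 0.62 in macrophages, 0.15 to 0.85 in endothelial cells and 0.17 to 1.38 in fibroblasts. The cause of these changes was not tested. The precision is limited by 2 control libraries, by 98 T cells in one of them and by few G2/M UMIs in the resting lineages.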
